A study of Mus musculus with 3 samples.

Results

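Core spliceosome protein genes were taken here as every gene symbol in the deposited count tables that begins with Snrp, Snrnp, Sf3a, Sf3b, Prpf, U2af or Lsm and a digit, together with U2surp, Sf1 and Eftud2. The rule found 60 of 41743 symbols, and all 60 matched a protein-coding gene of RefSeq. They were sorted by the particle their proteins belong to into 6 genes of U1, 16 of U2 and branch site recognition, 13 of the U4/U6.U5 tri-snRNP, 21 of the Sm and Lsm families and 4 others. A count was present for 59 of them, and the same 59 passed the filter on low counts. Snrpn was at 0 in every library.

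The spliceosome cuts introns out of newly made transcripts. It assembles on each intron from small nuclear ribonucleoproteins (snRNPs), in which a small nuclear RNA is held by a ring of Sm or Lsm proteins and carries proteins of its own. U1 binds the start of the intron, U2 binds the branch site near its end, and the U4/U6.U5 tri-snRNP then joins and is rearranged into the catalytic form. The values below concern the messenger RNAs that encode these proteins, not the small nuclear RNAs or the proteins themselves.

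RNA was recovered by immunoprecipitation from K7M2 cells, a mouse osteosarcoma line, and sequenced (RIP-seq). The ezrin group held 2 libraries made with an antibody to ezrin, and the IgG group held 1 library made with normal mouse IgG. Cells of both groups carried the same genotype, Ezrin -/- transfected with Ezrin T567A: the cells' own ezrin gene was knocked out by CRISPR/Cas9 and ezrin with the T567A change was stably put back from a cDNA vector. No treatment was given. The study asked which RNAs the closed form of ezrin binds, and ezrin links the plasma membrane to actin. The labels name a line (COL3A) but not whether it is 1 clone. They do not tie the ezrin libraries to separate cultures either, so the spread between these 2 may be technical. The p-values rest on that spread, pooled over genes, and the 1 IgG library gives no measure of its own spread.

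Ezrin replicates 1 and 2 held 19676595 and 16196329 counts, and the IgG library held 10124580. Protein-coding genes held 97.0% and 97.5% of the counts in the ezrin libraries, against 74.1% in the IgG library, and the ribosomal RNA remnants Gm26917 and Gm42418 held 0.122% and 0.198% against 16.5%. The part of this difference in the results below was not tested. Ezr itself was at 349 and 350 CPM (counts scaled to a common library total) in the ezrin libraries and 155 CPM in the IgG library, and the counts do not separate the transgene from the gene. Of the bone markers, Col1a2 was at 2934 and 2248 against 1185 CPM and Runx2 at 37.6 and 35.8 against 61.0 CPM, whereas the osteoblast genes Sp7 and Bglap were under 1 CPM in every library. Under 1 CPM in every library were also 4 of 5 macrophage, 4 of 4 epithelial, 2 of 3 endothelial and 3 of 4 B cell markers, with Ptprc, Adgre1 and Jchain at 0. The macrophage receptor gene Csf1r was at 964 and 870 against 1234 CPM, and the plasma cell gene Sdc1 at 30.0 and 28.7 against 35.0 CPM.

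Of the 39 measured members outside the Sm and Lsm families, 24 were higher in the ezrin libraries than in the IgG library and 1 was lower, whereas of the 20 Sm and Lsm genes 2 were higher and 2 lower. Over all 59 measured members this made 26 higher and 3 lower. Calls rest on the quasi-likelihood test of edgeR, with p-values adjusted (Benjamini-Hochberg) over all 12478 genes tested. That is 44.1% higher and 5.08% lower, beside 19.0% higher and 17.4% lower among all genes tested 20.5% and 15.7% among protein-coding genes, and, once genes averaging under 10 CPM were left out, 21.4% and 21.7% (26 and 3 of the 56 members then tested). DESeq2 called 25 members higher and 2 lower, beside 14.0% and 8.82% of all genes. With the authors' RPKM limma called 36 higher and 1 lower of 58, beside 36.6% and 5.22%. At least 2-fold higher were 19 members, beside 9.83% of all genes. The median log2 fold of the members was 0.48, and that of all genes tested was -0.02. Together the members held 1.10% (95% exact interval 1.09 to 1.10) of counts in each ezrin library, against 0.522% (0.518 to 0.526) in the IgG library. As a share of protein-coding counts alone the values were 1.13% and 1.12% against 0.704%. These folds compare shares of libraries of RNA recovered with the ezrin antibody and with IgG, not message levels in the cells. No input library is analysed here, and each library pools many cells. Intervals cover counting error only.

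The number of calls depended on the test. Limma on the same TMM-scaled log2 CPM, a setting added after the results were seen, called 9 members higher and 0 lower (25 and 2 at an unadjusted p under 0.05), beside 5.00% and 4.94% of all genes, while the members' median log2 fold stayed at 0.47. Limma after cyclic loess, which removes a smooth trend of the fold with level, called 10 higher and 1 lower, beside 7.82% and 6.51% of all genes, at a median of 0.38. Limma on CPM thus called fewer members than edgeR both with and without loess. Called higher in all 9 settings that gave a test were Snrnp70, Sf3a1, Sf3b1, Sf3b2, Snrnp200, Eftud2 and Prpf6, and no lower call held in all of them.

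**Figure D1:**
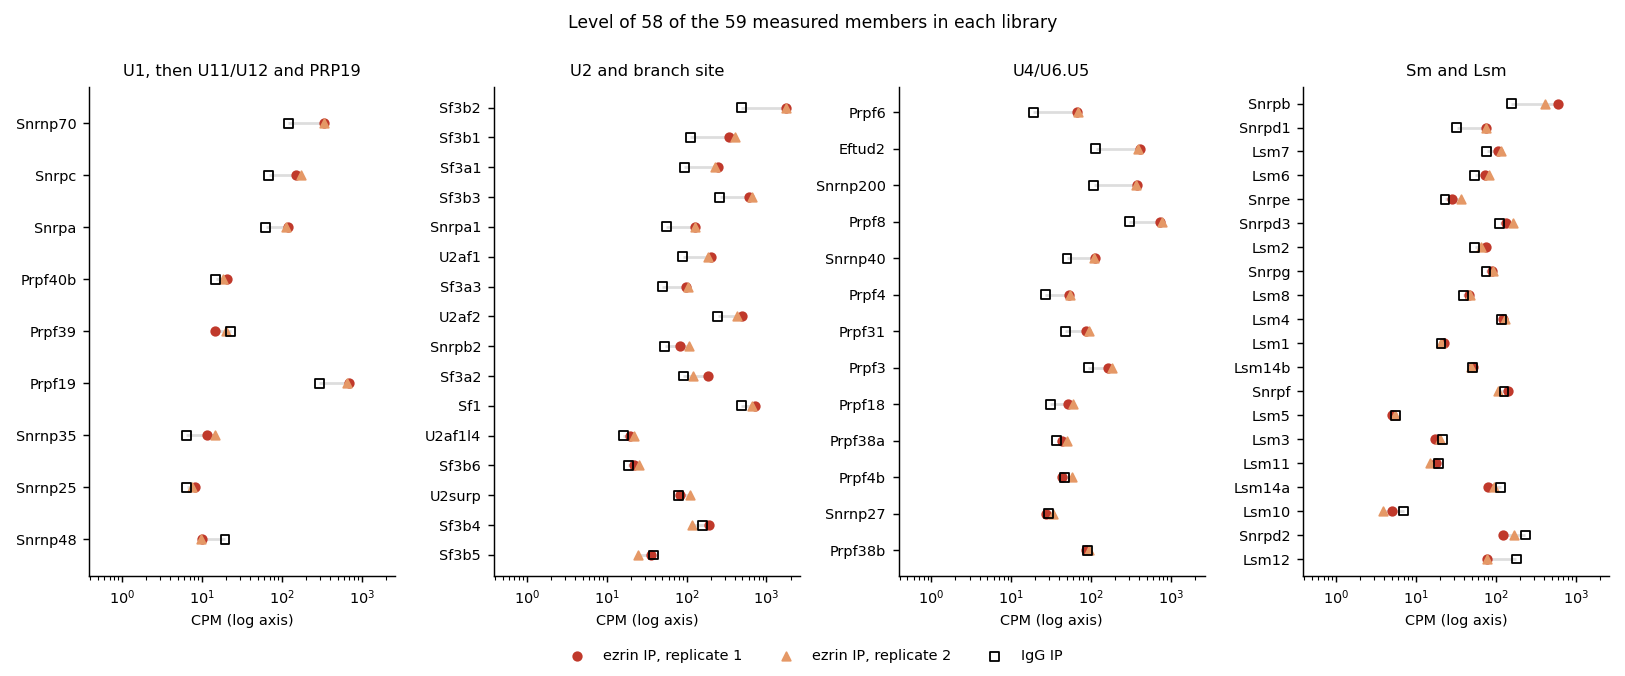
Level of 58 of the 59 measured members in each library, in CPM on a log axis, with ezrin replicates 1 and 2 as filled circles and triangles and the IgG library as open squares. Within each particle, genes run by fold from the top. Over all 59, both ezrin values lay above the IgG value for 41 genes, below it for 10 and on either side of it for 8. Among all genes tested, both lay above it for 42.6% and below it for 44.3%.

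The 3 proteins found only in U1 were all encoded by messages that were higher in the ezrin libraries. The 3 U1-associated genes of the Prpf group were not called. Among all genes tested, 19.0% were higher and 17.4% lower. Snrnp70 encodes U1-70K, which binds the first stem-loop of U1 RNA (chromosome 7, 45376454 to 45395742, GRCm38). It had 341 and 336 CPM in the ezrin libraries, against 121 CPM in the IgG library, a 2.81-fold difference (log2 fold 1.49, SE 0.25, edgeR adjusted p = 4.62e-08). Both ezrin libraries lay far above IgG and within 1.01-fold of each other. Snrpc encodes U1-C, which steadies the pairing of U1 with the intron start (chromosome 17, 27840028 to 27851968). It was at 151 and 174 CPM in the ezrin libraries and 68.0 CPM in the IgG library (log2 fold 1.26, SE 0.25, edgeR adjusted p = 1.01e-05). Snrpa, for the U1-A protein that binds the second stem-loop, was at 119 and 112 against 62.6 CPM (log2 fold 0.89). By limma after cyclic loess Snrnp70 passed, Snrpc kept a log2 fold of 1.11 (limma adjusted p = 0.0513) and Snrpa one of 0.76 (limma adjusted p = 0.0879).

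Prpf39 and Prpf40b encode relatives of yeast U1 proteins that help U1 hold the intron start. Prpf40b had 20.8 and 18.5 CPM in the ezrin libraries and 14.8 CPM in the IgG library, so both ezrin libraries lay above IgG (log2 fold 0.41, edgeR adjusted p = 0.244). For Prpf39, 14.5 and 20.2 CPM stood against 22.9 CPM (log2 fold -0.40, edgeR adjusted p = 0.224). Prpf39 overlaps Fkbp3 on the opposite strand by 955 bases, and Fkbp3 had 537 and 532 counts in the ezrin libraries against 206 in the IgG library, where Prpf39 had 291 and 338 against 219. Whether counting used strand is not given. Snrpa overlaps BC024978 likewise by 491 bases. No member of the U1 class was lower by edgeR, at an unadjusted p under 0.05 or by DESeq2 (0 of 6 each).

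Of the 16 genes of U2 and branch site recognition, 10 were higher and none lower, beside 19.0% and 17.4% of all genes tested. Their median log2 fold was 0.86. None was lower at an unadjusted p under 0.05 or by DESeq2 either (0 each). Their summed level was 5136 ± 112 CPM in the ezrin libraries (SD, n = 2), against 2333 CPM in the IgG library. By limma 4 of the 10 passed after cyclic loess (Snrpa1, Sf3a1, Sf3b1 and Sf3b2) and 4 without it (Sf3a1, Sf3b1, Sf3b2 and Sf3b3). Of all genes, 7.82% were called higher after loess and 5.00% without it.

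SF3b is the part of U2 that clamps the branch site helix. Of its 6 genes that the naming rule matched, those of the 3 large subunits were higher and those of the 3 small ones were not called. Whether large and small subunits differed was not tested. Sf3b2 (chromosome 19, 5273921 to 5295457), which encodes a subunit that contacts RNA beside the branch site, took more counts in each ezrin library than any other member. It had 1764 and 1741 CPM in the ezrin libraries, against 486 CPM in the IgG library, a 3.61-fold difference (log2 fold 1.85, SE 0.23, edgeR adjusted p = 1.07e-13). The ezrin libraries differed by 1.01-fold from each other. Without Sf3b2 the remaining members summed to 8926 ± 120 CPM in the ezrin libraries and 5037 CPM in the IgG library.

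Sf3b1 encodes the ring-shaped subunit that encloses the branch site and is mutated in several human cancers (chromosome 1, 54985169 to 55027501). Its message was at 337 and 403 CPM in the ezrin libraries and 112 CPM in the IgG library, 3.32-fold higher (log2 fold 1.73, SE 0.25, edgeR adjusted p = 1.99e-10). Sf3b3, a scaffold of the same complex, was at 603 and 651 against 259 CPM (log2 fold 1.28, SE 0.23, edgeR adjusted p = 8.38e-07), and overlaps Cog4 on the opposite strand by 207 bases. In both genes every ezrin value exceeded the IgG value more than 2-fold.

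Of the smaller SF3b subunits, Sf3b4, an RNA-binding subunit, had 188 and 117 CPM in the ezrin libraries, on either side of the 159 CPM in the IgG library (log2 fold -0.06, edgeR adjusted p = 0.875). This was the widest gap between the ezrin libraries of any member, at 1.61-fold. Sf3b5 was at 36.0 and 25.0 against 38.5 CPM (log2 fold -0.33, edgeR adjusted p = 0.304), and Sf3b6, whose protein touches the branch site adenosine, at 22.2 and 25.1 against 18.6 CPM (log2 fold 0.34, edgeR adjusted p = 0.321). Neither was called.

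SF3a joins SF3b to the rest of U2, and its 3 genes were all higher. Sf3a1 had 247 and 228 CPM in the ezrin libraries, against 93.3 CPM in the IgG library (log2 fold 1.35, SE 0.25, edgeR adjusted p = 1.34e-06). Sf3a3 was at 99.3 and 103 against 49.7 CPM (log2 fold 1.03, SE 0.25, edgeR adjusted p = 0.00041). For Sf3a2 the ezrin libraries stood 1.52-fold apart, at 185 and 122 CPM against 90.9 CPM (log2 fold 0.76), and against IgG the log2 ratio of ezrin replicate 1 was 1.02 and that of ezrin replicate 2 was 0.42. The U2-specific proteins U2-A' and U2-B'', which sit on a stem-loop of U2 RNA, are encoded by Snrpa1 and Snrpb2. Snrpa1 was at 129 CPM in both ezrin libraries and 55.7 CPM in the IgG library (log2 fold 1.21, SE 0.26, edgeR adjusted p = 2.45e-05). Snrpb2 was at 81.9 and 106 against 53.5 CPM (log2 fold 0.81). In all 5 genes both ezrin libraries lay above IgG.

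Before U2 arrives, SF1 holds the branch site and the U2AF dimer holds the tract and the end of the intron. The large U2AF subunit U2af2, which binds the pyrimidine tract, had 500 and 425 CPM in the ezrin libraries, against 246 CPM in the IgG library (log2 fold 0.91). U2af1, the small subunit that reads the intron's last bases, was at 202 and 185 against 89.0 CPM (log2 fold 1.12, SE 0.25, edgeR adjusted p = 6.96e-05). Its relative U2af1l4 was at 19.6 and 22 against 16.2 CPM, which missed the threshold (log2 fold 0.36, edgeR adjusted p = 0.305). The gene of U2af1l4 overlaps Psenen on the opposite strand by 288 bases, and the same limit on strand applies. Sf1 was at 719 and 662 CPM in the ezrin libraries and 487 CPM in the IgG library. Its log2 fold of 0.50 (SE 0.22) missed the threshold (edgeR adjusted p = 0.0579) and was 0.10 after cyclic loess. It passed without a filter (edgeR adjusted p = 0.0331), with library size only (edgeR adjusted p = 0.0158) and with RPKM (limma adjusted p = 0.00248). In those settings the log2 fold of all genes had medians of 0.0745, 0.10 and 0.37, against -0.02 in the main edgeR fit. U2surp, a U2-associated RNA-binding protein, was at 83.5 and 112 against 79.8 CPM (log2 fold 0.29, edgeR adjusted p = 0.364).

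**Figure D2:**
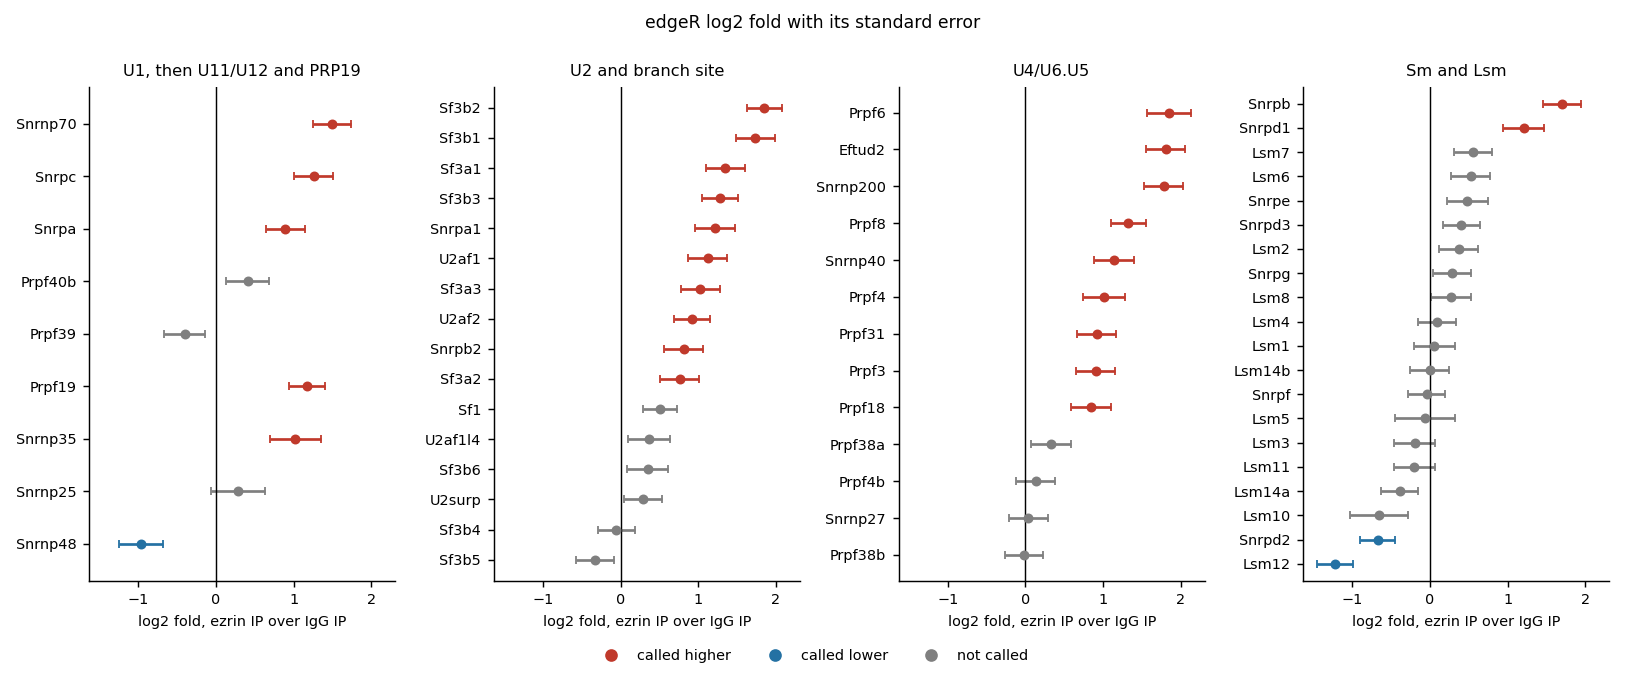
Log2 fold of 58 of the 59 measured members, ezrin IP over IgG IP, with bars of 1 standard error, by particle. Points called higher by edgeR are red, called lower blue and not called grey. All 5 U5 and all 3 U4/U6 genes matched by the rule were called higher, with log2 folds from 0.90 to 1.85. The Sm and Lsm panel held 2 called higher and 2 called lower.

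The U4/U6.U5 class had 9 of 13 genes higher and none lower, beside 19.0% and 17.4% of all genes tested. Its median log2 fold was 0.91. DESeq2 called none lower, and none was lower at an unadjusted p under 0.05 (0 each). The 5 genes of U5 proteins and the 3 of U4/U6 proteins that the rule matched were all higher. Of 5 genes of loosely associated proteins only Prpf18 was. The rule did not take every protein of these particles. Of 16 tri-snRNP partners outside it, 8 were higher and 1, Snu13, was lower (log2 fold -1.05). Txnl4a, at 27.2 and 27.4 against 37.4 CPM, was among those not called (log2 fold -0.46). The U4/U6.U5 class summed to 2283 ± 50.7 CPM in the ezrin libraries (SD, n = 2) and 989 CPM in the IgG library. By limma after cyclic loess 3 of the 9 passed (Prpf6, Eftud2 and Snrnp200), and without loess Prpf8 passed too. The shares of all genes called higher were 7.82% after loess and 5.00% without it. Snrnp40 and Prpf4 kept log2 folds of 1.03 and 0.94 after loess (limma adjusted p = 0.0523 and 0.0601).

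Prpf8 encodes the large U5 scaffold that surrounds the catalytic RNA (chromosome 11, 75486777 to 75509447). It took more counts than any other gene of the class, with 736 and 773 CPM in the ezrin libraries and 301 CPM in the IgG library (log2 fold 1.33, SE 0.23, edgeR adjusted p = 1.99e-07). Snrnp200 encodes Brr2, the helicase that unwinds U4 from U6 (chromosome 2, 127208386 to 127240453). Its level was 370 and 365 CPM in the ezrin libraries, against 107 CPM in the IgG library, 3.44-fold higher (log2 fold 1.78, SE 0.25, edgeR adjusted p = 6.13e-11). Eftud2, the U5 GTPase that steers that helicase (chromosome 11, 102838472 to 102880984), was at 412 and 381 against 113 CPM, 3.50-fold higher (log2 fold 1.81, SE 0.25, edgeR adjusted p = 2.52e-11). For each of these genes the ezrin libraries lay within 1.08-fold of each other and clear of IgG.

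Prpf6, which bridges U5 to U4/U6, had the highest log2 fold of the class. It was at 67.1 and 68.5 CPM in the ezrin libraries, against 18.8 CPM in the IgG library (log2 fold 1.85, SE 0.28, edgeR adjusted p = 1.77e-09). Snrnp40, a WD-repeat protein of U5, was at 110 CPM in both ezrin libraries and 49.7 CPM in the IgG library (log2 fold 1.14, SE 0.26, edgeR adjusted p = 7.47e-05). The U4/U6 genes followed at smaller folds. Prpf3 had 164 and 180 CPM in the ezrin libraries and 92.0 CPM in the IgG library (log2 fold 0.90), and its partner Prpf4 had 53.1 and 54.3 against 26.6 CPM (log2 fold 1.01, SE 0.27, edgeR adjusted p = 0.000924). Prpf31, which grips the U4 stem and is mutated in human retinitis pigmentosa, was at 85.6 and 93.0 against 47.3 CPM (log2 fold 0.91).

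Prpf18, a factor of the second catalytic step, was higher at 50.7 and 59.7 CPM in the ezrin libraries, against 30.7 CPM in the IgG library (log2 fold 0.84). The other 4 associated genes were not called, with log2 folds from -0.02 to 0.33. They were Prpf38a (43.0 and 50.1 against 37.0 CPM), the kinase gene Prpf4b (43.3 and 57.7 against 46.1 CPM), Snrnp27 (27.2 and 33.0 against 29.3 CPM) and Prpf38b (85.8 and 93.3 against 90.8 CPM). In 3 of them the IgG value lay between the ezrin values, and in Prpf38a it lay below both. Prpf38a overlaps Orc1 on the opposite strand by 3632 bases, and Orc1 had 247 and 205 counts in the ezrin libraries against 60 in the IgG library.

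**Figure D3:**
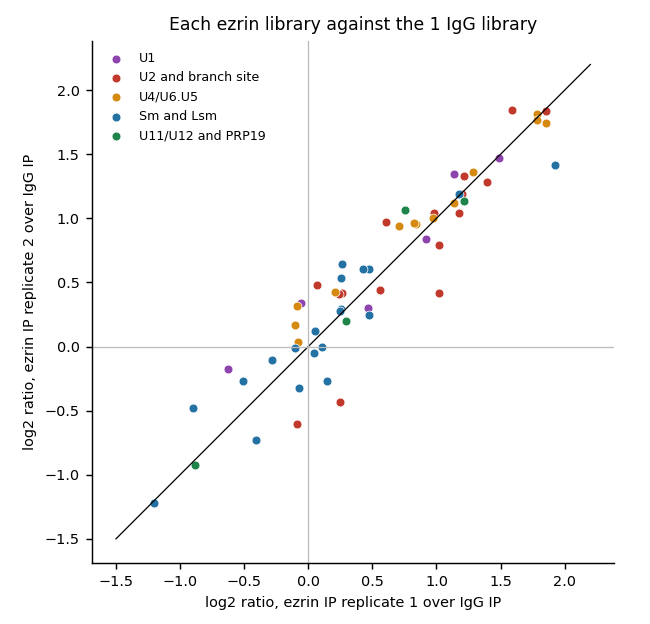
Log2 ratio of each ezrin library to the single IgG library, with 1 CPM added to both sides, for the 59 measured members: replicate 1 on the horizontal axis, replicate 2 on the vertical axis and equal ratios on the diagonal. Both ratios use the same IgG library, so nearness to the diagonal shows only that the ezrin libraries were alike, and genes such as Snrpb (1.93 and 1.42) and Sf3a2 (1.02 and 0.42) lay off it.

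The Sm and Lsm messages formed the class with the fewest calls relative to its size. Of 20 measured genes, 2 were higher and 2 lower, beside 19.0% and 17.4% of all genes tested. The median log2 fold of the class was 0.07, and 16 were not called. By counts the class took 0.192% (95% exact interval 0.190 to 0.194) and 0.184% (0.182 to 0.186) of the ezrin libraries, against 0.143% (0.141 to 0.146) of the IgG library. These are shares of all counts, and protein-coding genes held 97.0% and 97.5% of the ezrin libraries but 74.1% of the IgG library. The part of that difference in the class's shares was not tested. Whether this class differed from the other classes was not tested either. With the authors' RPKM 8 of the 20 were higher and 1 lower by limma, beside 36.6% and 5.22% of all genes. On that scale the log2 fold of all genes had a median of 0.37. Small Sm and Lsm genes have processed copies elsewhere in the mouse genome, and how reads that match several places were counted is not given, so single values here are uncertain.

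The Sm proteins B, D1, D2, D3, E, F and G close into a ring around U1, U2, U4 and U5 RNA. Snrpb, for SmB and SmB' (chromosome 2, 130171636 to 130179382), had 594 and 416 CPM in the ezrin libraries, against 155 CPM in the IgG library, a 3.25-fold difference (log2 fold 1.70, SE 0.24, edgeR adjusted p = 1.5e-10). The ezrin libraries stood 1.43-fold apart, and both were above IgG. Snrpd1, for SmD1, was at 74.7 and 75.4 against 32.5 CPM (log2 fold 1.21, SE 0.26, edgeR adjusted p = 4.83e-05). Both kept their calls in each setting with a test except limma on TMM-scaled log2 CPM (log2 folds 1.68 and 1.21, limma adjusted p = 0.0507 for each).

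Snrpd2, which encodes SmD2, lay on the other side. It had 124 and 167 CPM in the ezrin libraries and 233 CPM in the IgG library, 1.60-fold lower (log2 fold -0.68, SE 0.23, edgeR adjusted p = 0.012). Its call was lost with RPKM (log2 fold -0.30, limma adjusted p = 0.367), by limma on TMM-scaled log2 CPM (log2 fold -0.69, limma adjusted p = 0.164) and after cyclic loess, where the fold was larger (log2 fold -0.91, limma adjusted p = 0.0932). The remaining Sm genes were not called. Snrpd3 was at 133 and 162 against 112 CPM (log2 fold 0.40), Snrpe at 28.0 and 36.5 against 23.1 CPM (log2 fold 0.48), Snrpg at 90.1 and 92.3 against 75.2 CPM (log2 fold 0.28) and Snrpf at 140 and 105 against 126 CPM (log2 fold -0.04). Only Snrpf of these had an IgG value between the ezrin values.

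Per length, in RPKM, the levels of the Sm messages also spread widely, although their proteins enter the ring in equal numbers. Snrpb was at 252 and 181 RPKM in the ezrin libraries and 51.0 RPKM in the IgG library. Snrpf was at 137 and 105 against 95.2 RPKM, and Snrpe, the lowest in ezrin replicates 1 and 2, at 17.1 and 22.9 against 10.9 RPKM. Thus Snrpb led in the ezrin libraries, whereas Snrpf led in the IgG library. These RPKM serve to rank genes within a library, since the log2 fold of all genes had a median of 0.37 on that scale. Snrpn, which encodes the brain form SmN in place of SmB, had 0 counts in all 3 libraries. If all its reads were counted, a count of 0 allows up to 0.152 and 0.185 CPM of the raw totals in the ezrin libraries and 0.296 CPM in the IgG library (3 counts each). Snrpn overlaps Snhg14 by 467683 bases and Snurf by 22705 bases, both on its own strand. How reads in shared bases were counted is not given, so the 0 need not mean that the message was absent.

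Lsm2 to Lsm8 form the ring on U6 RNA, and none of their 7 genes was called in either direction by edgeR or DESeq2 (2 higher and 0 lower at an unadjusted p under 0.05). The nearest to the threshold were Lsm7, at 107 and 117 CPM in the ezrin libraries and 76.4 CPM in the IgG library (log2 fold 0.55, edgeR adjusted p = 0.0657), and Lsm6, at 73.1 and 83.0 against 54.2 CPM (log2 fold 0.52, edgeR adjusted p = 0.0851). Lsm2 was at 75.2 and 64.3 against 54.0 CPM, Lsm8 at 46.6 and 47.7 against 39.2 CPM and Lsm4 at 123 and 129 against 119 CPM. The fewest counts went to Lsm3, at 17.4 and 19.7 against 21.3 CPM, and Lsm5, at 5.08 and 5.48 against 5.54 CPM. In 5 of the 7 genes both ezrin libraries lay above IgG, and in Lsm3 and Lsm5 both lay below. Over all genes tested, both ezrin libraries lay above IgG in 42.6% and below it in 44.3%.

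None of the 6 Lsm genes outside the U6 ring was higher by edgeR, at an unadjusted p under 0.05 or by DESeq2 (0 each), and Lsm12 had the lowest log2 fold of all members. Its protein, known as a partner of ataxin-2, belongs to none of the snRNP rings. Lsm12 (chromosome 11, 102162497 to 102186268) had 77.2 and 76.4 CPM in the ezrin libraries, against 179 CPM in the IgG library, 2.33-fold lower (log2 fold -1.22, SE 0.23, edgeR adjusted p = 1.97e-06). The ezrin libraries were within 1.01-fold of each other, and the call held in each setting with a test except limma on TMM-scaled log2 CPM (log2 fold -1.22, limma adjusted p = 0.0501). Lsm14a and Lsm14b encode paralogous proteins of P-bodies, which store and decay messages. Lsm14a was at 79.9 and 94.7 against 114 CPM (log2 fold -0.39, edgeR adjusted p = 0.191) and Lsm14b at 51.9 and 48.6 against 50.4 CPM (log2 fold near 0, edgeR adjusted p = 0.994). Lsm1, which replaces Lsm8 in the cytoplasmic decay ring, was at 22.2 and 20.6 against 20.6 CPM. The U7 ring genes Lsm10 and Lsm11, whose proteins serve histone message processing, were at 5.03 and 3.82 against 7.0 CPM and at 18.0 and 15.0 against 19.0 CPM. None of these 5 was called, and the IgG value was the highest of the 3 in Lsm14a, Lsm10 and Lsm11.

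The other matched genes were Prpf19 and 3 proteins of the U11/U12 snRNP, which recognises the rare introns of the minor spliceosome. Prpf19 encodes the ubiquitin ligase at the centre of the PRP19 complex, which stabilises the catalytic form (chromosome 19, 10895231 to 10909559). It had 684 and 647 CPM in the ezrin libraries and 295 CPM in the IgG library (log2 fold 1.17, SE 0.23, edgeR adjusted p = 5.11e-06). By limma it did not pass, at a log2 fold of 1.17 on TMM-scaled log2 CPM (limma adjusted p = 0.0524) and 0.82 after cyclic loess (limma adjusted p = 0.0774).

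The U11/U12 genes had few counts and went both ways. Snrnp35, the counterpart of U1-70K, had 11.4 and 14.4 CPM in the ezrin libraries, against 6.38 CPM in the IgG library (log2 fold 1.02, SE 0.33, edgeR adjusted p = 0.00809), from 229, 242 and 61 counts. It overlaps Rilpl1 on the opposite strand by 507 bases, a gene with 197, 191 and 114 counts in the same libraries. Snrnp48 was at 10.1 and 9.78 CPM in the ezrin libraries and 19.4 CPM in the IgG library (log2 fold -0.97, SE 0.28, edgeR adjusted p = 0.00275), from 202, 164 and 186 counts. DESeq2 called neither (adjusted p = 0.115 and 0.0868), nor did limma after cyclic loess, at log2 folds of 1.05 and -0.97 (limma adjusted p = 0.0642 and 0.0576). Snrnp25 was at 8.17 and 7.57 against 6.48 CPM (log2 fold 0.28, edgeR adjusted p = 0.558).

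Calls were more frequent among members with many counts, as they were among all genes. Of 24 members with a mean of at least 100 CPM over the 3 libraries, 16 were higher and 2 lower, beside 38.5% and 14.8% of all genes at that level. Of 15 members at 50 to 100 CPM, 7 were higher and none lower, beside 24.9% and 18.1%. Of 20 members under 50 CPM, 3 were higher and 1 lower, beside 12.3% and 17.9%. The mean includes the ezrin libraries, so a higher gene is moved up in level by its own fold. Spearman's rho between log2 fold and log2 mean CPM was 0.55 over the 59 members and 0.26 over the 12478 genes. It was 0.22 within the 20 Sm and Lsm genes and 0.62 within the 39 other members. With gene length the values were 0.27 over the members and -0.05 over all genes. These describe genes that share the same 3 libraries, and genes are not independent replicates. The lengths were those implied by the deposited counts and RPKM, and that of Sf3b5, 3841 bases, exceeded its RefSeq span of 734.

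**Figure D4:**
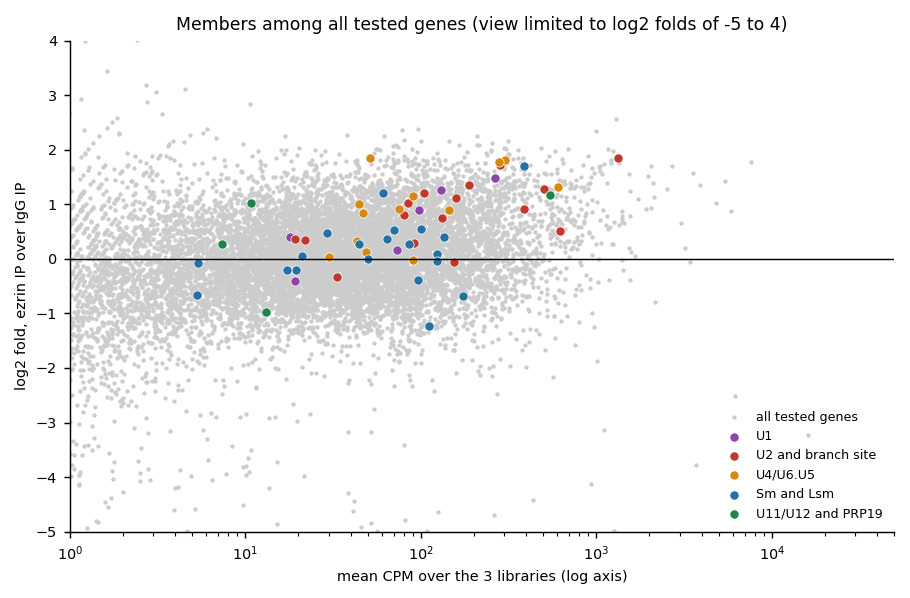
Log2 fold, ezrin IP over IgG IP, against the mean CPM over the 3 libraries on a log axis, for the 59 members coloured by class and all tested genes within the plotted range in grey. The members with the highest means, Sf3b2, Sf1, Prpf8, Prpf19 and Sf3b3, lay at log2 folds of 1.85, 0.50, 1.33, 1.17 and 1.28.

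The ezrin libraries gave like values for most members. The ratio between them had a median of 1.10-fold over the 59 genes and reached 1.5-fold for 2, Sf3b4 and Sf3a2. With ezrin replicate 1 alone the members' median log2 ratio to IgG was 0.46, and with ezrin replicate 2 alone 0.48. For the U2 class it was 1.0 and 0.88, for the U4/U6.U5 class 0.84 and 0.96, for the U1 class 0.69 and 0.59, and for the Sm and Lsm class 0.13 and 0.06. These ratios share the 1 IgG library.

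Further splicing genes that the rule did not take were read from 7 lists of partners and later-acting factors. Of 104 such genes measured, 53 were higher and 4 lower (51.0% and 3.85%, beside 19.0% and 17.4% of all genes), with a median log2 fold of 0.61. By limma after cyclic loess 16 were higher and 3 lower (beside 7.82% and 6.51% of all genes). Of the U2-associated list, 10 of 16 were higher and none lower (0 at an unadjusted p under 0.05, 0 by DESeq2). They ran from the U2 cofactor Htatsf1 (39.6 and 47.9 against 28.2 CPM, log2 fold 0.63) to Rbmx2 (log2 fold 2.17), which had 94 and 96 counts in the ezrin libraries against 11 in the IgG library. Of 9 genes that act with U1, 1 was higher and 1 lower (11.1% each, no more than among all genes). The helicase gene Ddx5 had 747 and 846 CPM in the ezrin libraries and 313 CPM in the IgG library (log2 fold 1.35), and Luc7l2, a relative of a yeast U1 protein, 116 and 137 against 210 CPM (log2 fold -0.73).

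Of 16 tri-snRNP partners, 8 were higher and 1 lower (50% and 6.25%, beside 19.0% and 17.4% of all genes). Smu1, which helps activate the spliceosome, was the highest at 101 and 120 CPM in the ezrin libraries and 32.0 CPM in the IgG library (log2 fold 1.78). Snu13, which binds the kink of U4 RNA and also of box C/D snoRNAs, was at 144 and 159 against 313 CPM (log2 fold -1.05). Of 25 genes of the PRP19 complex and of activation and catalysis, 15 were higher (60%) and none lower (0 at an unadjusted p under 0.05, 0 by DESeq2). They ran from Dhx16 (log2 fold 0.58), an activating helicase, to Crnkl1 (87.4 and 96.1 against 27.1 CPM, log2 fold 1.76), a scaffold of that complex. Of 10 exon junction genes, 6 were higher (60%) and none lower (again 0 by both measures). These ran from Acin1 (log2 fold 0.68) to the core helicase Eif4a3 (326 and 344 against 110 CPM, log2 fold 1.61).

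Genes that build the snRNPs had 11 of 19 higher and 1 lower by edgeR (57.9% and 5.26%, beside 19.0% and 17.4% of all genes). DESeq2 called 5 of them higher and 1 lower, beside 14.0% and 8.82% of all genes. Gemin4, of the SMN complex that loads the Sm ring, had 83.2 and 60.9 CPM in the ezrin libraries and 18.7 CPM in the IgG library (log2 fold 1.95), and Gemin7 of the same complex had 15.3 and 13.1 against 30.8 CPM (log2 fold -1.12). Of 9 other minor spliceosome genes, 2 were higher and 1 lower (22.2% and 11.1%, near the shares of all genes), from Scnm1 (47.4 and 57.1 against 22.2 CPM, log2 fold 1.24) to Rnpc3, which encodes a protein of the U11/U12 snRNP (8.07 and 8.11 against 18.0 CPM, log2 fold -1.15).

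**Figure D5:**
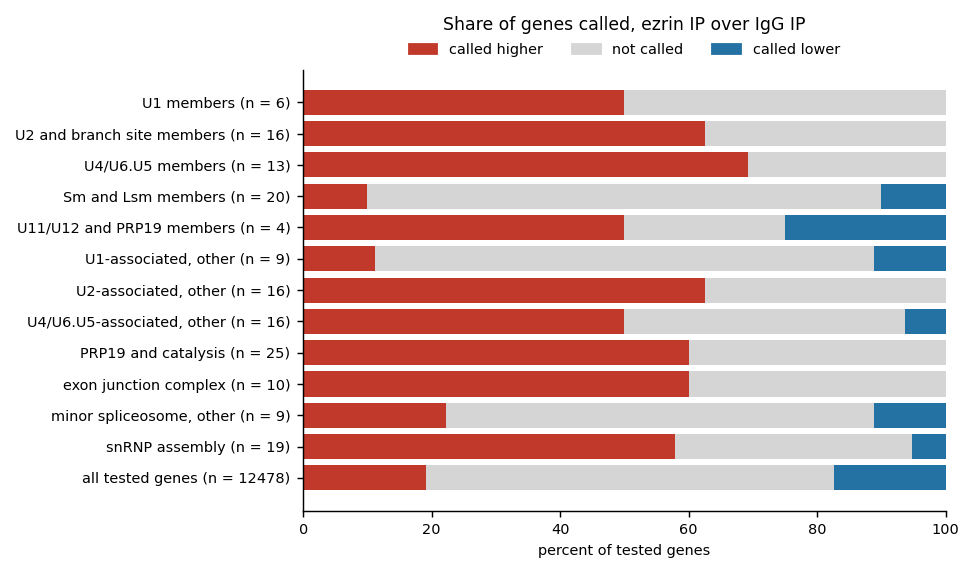
Percent of the tested genes of each class and list that edgeR called higher (red), not called (grey) or lower (blue) in ezrin IP over IgG IP, with all tested genes at the bottom and n beside each name. Called higher were 9 of 13 genes in the U4/U6.U5 class, 10 of 16 in the U2 class and 2 of 20 in the Sm and Lsm class.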

How the data were processed

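Per the labels' protocols, RNA from K7M2 cells was immunoprecipitated with a commercial RIP kit, depleted of ribosomal RNA and sequenced as paired reads of 150 bases. The labels also name polyA RNA. For each library the authors deposited 1 table of raw counts and 1 of RPKM, both by gene symbol. Per the submitters' processing notes the build was GRCm38. Not given in the sources used here are the aligner, the counter, the annotation and the use of strand. Gene lengths came from deposited count over RPKM, scaled on small RNA genes of known length (the RefSeq table of GRCm38.p6, which also gave coordinates).

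The counts were tested with edgeR 4.0.16 (R 4.3.3): quasi-likelihood test, TMM factors of 1.02, 1.04 and 0.946 for ezrin replicates 1 and 2 and IgG, default filterByExpr, 12478 genes, Benjamini-Hochberg adjustment at 0.05. The fit has 1 residual degree of freedom, the IgG library is assumed to vary like the ezrin libraries, and edgeR's prior degrees of freedom came out infinite for all 12478 genes, so the pooled spread stood in for each gene's own. Standard errors are the fold over the square root of F and are approximate. CPM are scaled by the TMM factors. On 5 simulated sets of 12478 genes with 200 changed each, edgeR called 62.0% of genes raised 2-fold, 57.2% of those lowered 2-fold, 100% of those raised 4-fold and 95.2% of those lowered 4-fold. Alternatives used other filters, normalizations, DESeq2 1.42.0 and limma 3.58.1 (on log2 of RPKM + 1, on log2 CPM after cyclic loess and, added later, on TMM-scaled log2 CPM).

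The members and lists were chosen with earlier results of these data known. By rule, values in every library went to the 2 members of each class with the highest mean CPM, to its highest and lowest log2 fold, to members called at least 2-fold and to paralog pairs. The remaining members were added, except 1 that is not reported here by name and enters the counts and medians only. List genes named are the highest and lowest called, and Txnl4a, which was not called. No protein or transcript sequence was used.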

Additional observations from a re-analysis of the deposited data

How the results depend on the processing

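No paired analysis was possible because the groups share only replicate number 1. Leaving out an ezrin library leaves 1 against 1 library, so no call can be made. The members' median log2 fold was then 0.46 to 0.48, and 0.57 without a filter, 0.41 at a mean of at least 10 CPM, 0.60 with library size only, 0.49 with RLE factors, 0.49 with DESeq2, 0.82 with RPKM, 0.38 after cyclic loess and 0.53 with the length trend subtracted. The median of all genes was 0.0745, 0.10 and 0.37 without a filter, with library size only and with RPKM. Limma after cyclic loess called 10 members higher in all, 1 in U1, 4 in U2, 3 in U4/U6.U5 and 0 among Prpf19 and the U11/U12 genes. Limma on TMM-scaled log2 CPM without loess, added after the results were seen, called 9 higher in all, 1 in U1, 4 in U2 and 4 in U4/U6.U5. It called 0 higher in Sm and Lsm, 0 higher among Prpf19 and the U11/U12 genes, and 0 lower in any class. 1 member was lower with RPKM and 1 after cyclic loess, in each case Lsm12, the 1 lower Sm and Lsm gene. The U11/U12 count of lower genes was 0 after cyclic loess, and 0 with RPKM because Snrnp48 was not tested there. Higher Sm and Lsm genes numbered 4 with library size only (beside 2872 of 12478 genes) and 8 with RPKM (beside 36.6% of all genes). DESeq2 called 1 of the Prpf19 and U11/U12 genes higher and 0 lower. Of the 26 members higher by edgeR, 7 passed in all 9 settings with a test, 13 failed in both limma settings on CPM and in no other, 2 only after cyclic loess and 3 only in limma without loess. The cause was not tested.

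Genes that were not called changed sign. Lsm14b had a log2 fold of 0.0905 without a filter, 0.12 with library size only, 0.00774 with RLE factors, 0.00769 with DESeq2, 0.36 with RPKM and -0.0510 to 0.0430 with 1 ezrin library left out. Prpf38b was at 0.0729 without a filter, 0.10 with library size only, 0.33 with RPKM, 0.0262 with the length trend subtracted and -0.0809 to 0.0385 with 1 ezrin library left out. Sf3b5 was at 0.0291 with RPKM. Counts limit the rare genes most: Lsm5 and Lsm10 had standard errors of 0.39 and 0.38.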
